A study of Mus musculus with 15 samples.

Results

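Inhibitory interneurons are the neurons of the hippocampus that release GABA, and 9 genes that build or mark them were followed in cultured mouse hippocampal neurons given acetate, an inhibitor of the enzyme ACSS2, or both. The 9 genes were chosen by name: Gad1, Gad2, Slc32a1, Lhx6, Dlx1, Dlx2, Pvalb, Calb2 and Reln. All 9 were found among the 24498 genes of the deposited count table, and all 9 passed the filter on low counts, which kept 15075 genes. The study asked how acetate, a product of alcohol breakdown, and ACSS2, which turns acetate into acetyl-CoA, act on gene expression in these cells. Primary neurons came from a neuronal culture core and were kept in neurobasal medium with GlutaMAX and B27. After 7 days of differentiation they were treated for 24 h. In DMSO vehicle cultures (4 libraries) the cells received medium and the solvent DMSO, and in DMSO acetate cultures (4 libraries) they received 5 mM acetate and DMSO. In inhibitor vehicle cultures (3 libraries) they received medium and 20 µM of the ACSS2 inhibitor, and in inhibitor acetate cultures (4 libraries) both agents. No allele or transgene is named, and the sources used here do not give strain, age, sex or the relation of replicates to animals or cultures.

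Interneurons make GABA from glutamate with the decarboxylases GAD67 (Gad1) and GAD65 (Gad2), and load it into synaptic vesicles with the transporter VGAT (Slc32a1). Most hippocampal interneurons are born in the ganglionic eminences, where the homeobox factors Dlx1 and Dlx2 act early and Lhx6 acts in cells of medial origin. Mature subclasses are told apart by the calcium-binding proteins parvalbumin (Pvalb) and calretinin (Calb2) and by the secreted glycoprotein reelin (Reln), which Cajal-Retzius cells also make. Calretinin is not limited to interneurons, since other hippocampal neurons can hold it as well.

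Of the members, 6 lie on chromosome 2 of the mouse genome (GRCm38, GENCODE vM21 annotation). Gad1 spans chr2:70553072-70602014 and Gad2 chr2:22622205-22693874, both on the plus strand, so the decarboxylase genes are not neighbours. Dlx1 (chr2:71528113-71533981, plus strand) and Dlx2 (chr2:71543408-71546754, minus strand) are, with 9426 bases between them. Slc32a1 lies at chr2:158610767-158615748 (plus) and Lhx6 at chr2:36081953-36105408 (minus). Pvalb is at chr15:78191114-78206400, Calb2 at chr8:110137502-110168210 and Reln at chr5:21884454-22344702, all on the minus strand. Exons on the opposite strand overlap those of Dlx1 (Dlx1as), Slc32a1 (Gm14205) and Reln (Gm10475), and an exon of Gm27953 overlaps those of Lhx6 on the same strand. Of these overlapping genes, only Dlx1as has its own counts in the deposited count table. The sources used here do not say whether counting used the strand or how overlaps were treated, so counts of these members are uncertain to that extent.

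The stretch of 250 bases before the annotated start (RefSeq, GRCm38.p6) was read for the 8 members with an entry; Calb2 had none. Windows of Dlx2, Reln and Pvalb are shown because they hold no annotated exon and because the values of these genes, or of the neighbour of Dlx2, carry the results that follow; Reln and Pvalb were chosen for display after their values were seen. Capitals mark CACGTG, which reads the same on both strands.
Dlx2, chr2:71546755-71547004, minus strand: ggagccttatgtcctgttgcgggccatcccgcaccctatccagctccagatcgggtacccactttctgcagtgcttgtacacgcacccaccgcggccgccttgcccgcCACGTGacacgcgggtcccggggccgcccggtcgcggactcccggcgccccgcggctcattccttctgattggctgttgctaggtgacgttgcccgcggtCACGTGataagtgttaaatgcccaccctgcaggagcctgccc
Reln, chr5:22344706-22344955, minus strand: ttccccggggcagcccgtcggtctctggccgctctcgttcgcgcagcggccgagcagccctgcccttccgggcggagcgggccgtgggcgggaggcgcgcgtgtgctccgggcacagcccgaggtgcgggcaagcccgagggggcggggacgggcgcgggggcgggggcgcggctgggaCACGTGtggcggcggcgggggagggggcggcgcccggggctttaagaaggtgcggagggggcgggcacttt
Pvalb, chr15:78206401-78206650, minus strand: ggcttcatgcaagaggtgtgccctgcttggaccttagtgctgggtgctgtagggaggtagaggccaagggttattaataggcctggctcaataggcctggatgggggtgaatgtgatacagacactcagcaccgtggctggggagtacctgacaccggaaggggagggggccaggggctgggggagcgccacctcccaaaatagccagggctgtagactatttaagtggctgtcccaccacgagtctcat
The Dlx2 window held CACGTG 2 times, had 66.4% G and C and held 24 CpG dinucleotides. The Reln window held it 1 time, with 80.0% G and C and 37 CpG. The Pvalb window shown held none, with 58.4% G and C and 4 CpG. A second Pvalb start has a window without exons at chr15:78204238-78204487, which also held none, with 71.6% G and C and 23 CpG, against a median of 52.4% G and C over all windows. Among 32817 promoter windows of this length, 6.02% held CACGTG. The other motifs searched on both strands were TAATTA, found in 4.85% of windows, TGACGTCA in 1.55% and TATAAA in 12.37%; among the members' windows only TATAAA was found, 1 time, in that of Gad1. A match describes the letters and is no evidence of binding.

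Each library held 19688231 to 39234799 reads on genes, so 1 read was worth 0.0277 to 0.0541 CPM, a gene's count scaled to a common library size. The lowest count of any member in any library was 12 (Pvalb), so all 9 were detected throughout. The cultures held neurons: Tubb3, a neuronal tubulin, averaged 1388 ± 486 CPM (SD, n = 4) in DMSO vehicle. They also held transcripts of other cells, at unequal levels. A non-neuronal score, the mean log2 CPM over lists of astrocyte, oligodendrocyte lineage, microglia, vessel and meninges markers, was 4.52 ± 0.62 in DMSO vehicle (n = 4) and 3.76 ± 1.35 in inhibitor vehicle (n = 3). It was 2.44 ± 0.06 in DMSO acetate and 2.32 ± 0.14 in inhibitor acetate (n = 4 each). Of the 11 microglia markers tested, 11 fell with acetate in each arm, and their summed level ran from 139 to 685 CPM in DMSO vehicle and 31.9 to 53.2 CPM in DMSO acetate; in inhibitor cultures it ran from 25.9 to 567 CPM without acetate and from 22.1 to 64.2 CPM with it. Itgam, Ptprc and P2ry12 were at 0 in at least 1 DMSO acetate library and Cx3cr1 in at least 1 inhibitor acetate library. DMSO vehicle 1, with a score of 3.596, and inhibitor vehicle 2, with 2.21, stood apart from the rest of their groups, so results that rest on them are also given without both. In such bulk samples, fewer cells of a type and less RNA per cell cannot be told apart.

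Per kilobase of exon, Calb2 was the most abundant member in every group, from 84.1 ± 16.0 CPM per kb (SD, n = 4) in DMSO vehicle to 178 ± 25 in DMSO acetate (n = 4). Slc32a1 came next in every group, with 17.0 ± 0.9 CPM per kb in DMSO vehicle. In DMSO vehicle it was followed by Pvalb (11.9 ± 6.9), Gad1 (9.72 ± 1.02), Lhx6 (6.69 ± 1.30) and Gad2 (6.65 ± 0.74), and then by Reln (3.31 ± 1.06), Dlx1 (3.13 ± 0.73) and Dlx2 (1.78 ± 0.29), all in CPM per kb. The steps from Calb2 to Slc32a1, from Gad1 to Lhx6, from Gad2 to Reln and from Dlx1 to Dlx2 were larger than the SD of either gene, and other neighbours in that order differed by less than the larger SD. Pvalb was the third of the 9 in both vehicle groups and the last in both acetate groups.

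**Figure D1:**
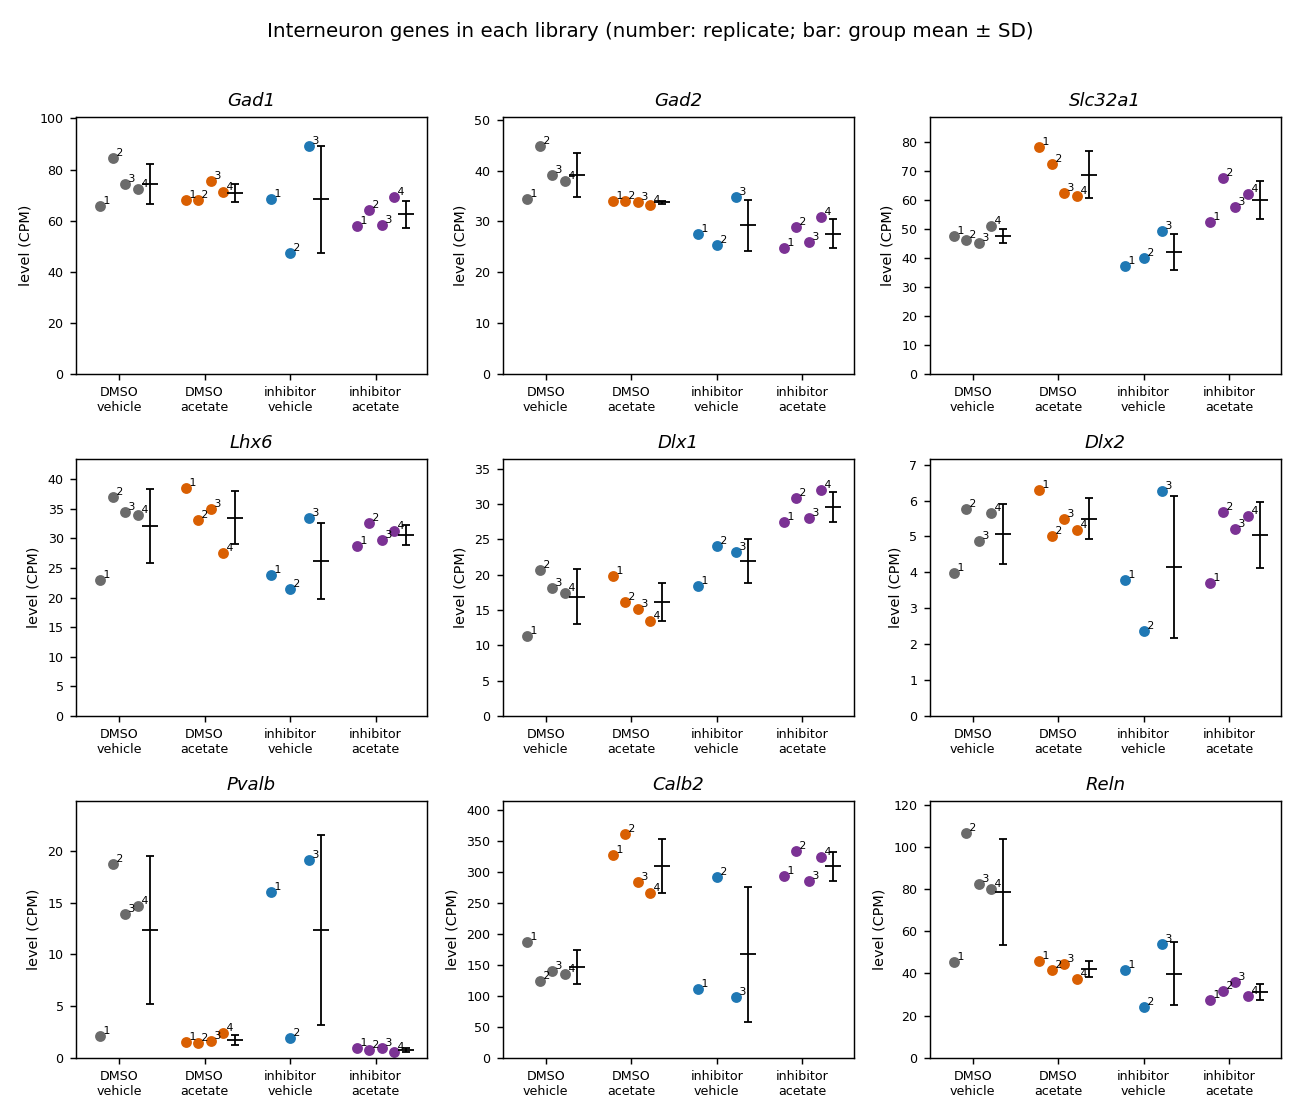
Level of each of the 9 interneuron genes in each of the 15 libraries (vertical axis, CPM from 0; horizontal axis, the 4 groups; points, libraries with their replicate number; bars, group mean ± SD). Slc32a1 lay between 61.5 and 78.4 CPM in DMSO acetate and between 45.3 and 51.0 CPM in DMSO vehicle, and Pvalb was low in DMSO vehicle 1 and inhibitor vehicle 2 as well as in all 8 acetate libraries.

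Acetate was first compared with vehicle in DMSO cultures. Of the 9 members, 2 rose, Slc32a1 and Calb2, and 2 fell, Pvalb and Reln (edgeR's quasi-likelihood test, Benjamini-Hochberg adjusted p under 0.05 over all 15075 genes). Acetate changed many genes, so these counts stand beside a background of 23.7% of all tested genes that rose and 27.5% that fell. The median log2 fold of the 9 was -0.07, against -0.03 over all genes tested. The same comparison was made with the inhibitor present, where Slc32a1 and Calb2 rose and Pvalb fell, beside 14.5% of all genes that rose and 20.6% that fell. There the median of the 9 was 0.22, against -0.03 over all genes. Without DMSO vehicle 1 and inhibitor vehicle 2, 2 members rose and 3 fell with DMSO, and 3 rose and 3 fell with inhibitor. In that fit the shares of all genes were larger too, 28.0% that rose and 31.6% that fell with DMSO and 22.5% and 26.7% with inhibitor.

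Slc32a1, the vesicular GABA transporter, measured 47.7, 46.1, 45.3 and 51.0 CPM in DMSO vehicle 1 to 4 and 78.4, 72.6, 62.6 and 61.5 CPM in DMSO acetate 1 to 4. The groups did not overlap, and the log2 fold was 0.53 (SE 0.10, adjusted p = 0.000833, edgeR). With inhibitor it measured 37.1, 39.8 and 49.3 CPM without acetate and 52.5, 67.6, 57.6 and 62.1 CPM with it. These groups did not overlap either, and the log2 fold was 0.51 (SE 0.11, adjusted p = 0.00448, edgeR). Genes whose groups did not overlap and were higher made up 22.1% of all genes in the DMSO arm and 16.4% in the inhibitor arm. The rise of Slc32a1 passed the test in 24 of 25 alternative settings in each arm, but with libraries scaled on pan-neuronal markers its log2 fold turned to -0.17 with DMSO and -0.02 with inhibitor. Scaled in this way, the median over all genes was -0.73 and -0.55. It gave 307 genes that rose and 11895 that fell with DMSO, where the scaling used here gave 3575 and 4139.

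Neither decarboxylase passed with acetate. Gad1, which makes most of the GABA in interneurons, measured 65.6, 84.5, 74.4 and 72.6 CPM in DMSO vehicle 1 to 4 and 68.0, 68.3, 75.6 and 71.4 CPM in DMSO acetate 1 to 4, with overlapping groups and a log2 fold of -0.07 (SE 0.14, adjusted p = 0.698, edgeR). Gad2 measured 34.4, 44.9, 39.1 and 38.0 CPM in DMSO vehicle and 34.0, 33.9, 33.8 and 33.2 CPM in DMSO acetate. Every DMSO acetate library lay below every DMSO vehicle library for Gad2, as for 23.3% of all genes, yet its log2 fold of -0.21 (SE 0.10, adjusted p = 0.1, edgeR) did not pass. It passed in 6 of 25 alternative settings, among them the fit without DMSO vehicle 1 (log2 fold -0.28, adjusted p = 0.0348, edgeR). With inhibitor the log2 folds of acetate were -0.13 for Gad1 and -0.08 for Gad2, and neither passed.

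Ratios within a library do not depend on how libraries are scaled, and 7 ratios of members were tested in 4 comparisons. The ratio of Slc32a1 to Gad1 reads averaged 0.646 ± 0.084 in DMSO vehicle and 0.977 ± 0.157 in DMSO acetate (SD, n = 4 each). In inhibitor cultures it averaged 0.645 ± 0.169 (n = 3) without acetate and 0.961 ± 0.072 (n = 4) with it. Acetate libraries lay above vehicle libraries in both arms, by 1.51-fold with DMSO (two-sided exact permutation p = 0.0286, adjusted over 28 tests 0.133) and 1.52-fold with inhibitor (exact permutation p = 0.0571, adjusted 0.133). These are the smallest p that 4 against 4 and 3 against 4 libraries can give. The ratio also differed between vehicle libraries: DMSO vehicle 1, at 0.727, and inhibitor vehicle 2, at 0.840 against 0.542 and 0.552 in the rest of its group, were the highest of their groups and the lowest in the non-neuronal score. The log2 ratio difference was 0.59 with DMSO and 0.60 with inhibitor, and it was 0.65 without DMSO vehicle 1 and 0.81 without inhibitor vehicle 2. The part of other cell types in the ratio was not tested further. Of the 28 tests, 6 had an unadjusted p under 0.05 and 0 an adjusted one. With these group sizes no outcome could have given an adjusted p under 0.05, so that 0 carries no information. The ratio of Gad2 to Gad1 was 0.526 ± 0.004 in DMSO vehicle and 0.477 ± 0.026 in DMSO acetate, with no overlap (exact permutation p = 0.0286, adjusted 0.133). It was 0.442 ± 0.080 in inhibitor vehicle (n = 3) and 0.442 ± 0.009 in inhibitor acetate (n = 4).

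**Figure D2:**
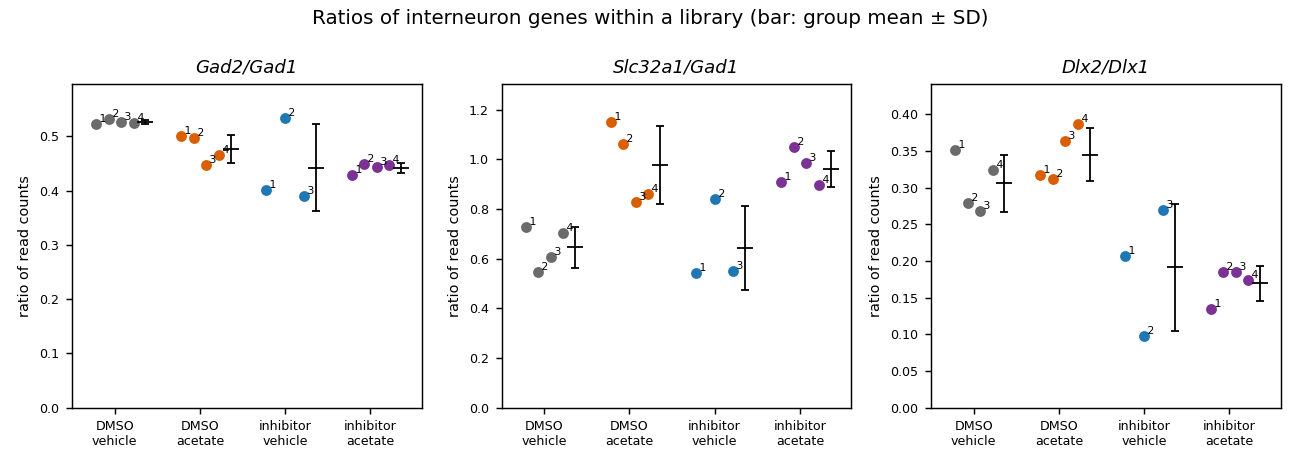
Ratios of read counts of 2 members within each library (vertical axes from 0, no unit; horizontal axis, the 4 groups; points, libraries with replicate number; bars, group mean ± SD). The ratio of Slc32a1 to Gad1 lay between 0.828 and 1.15 in DMSO acetate and between 0.546 and 0.727 in DMSO vehicle, and the ratio of Dlx2 to Dlx1 was 0.135 to 0.185 in inhibitor acetate.

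The transcription factors of the interneuron lineage did not pass in either acetate comparison. Lhx6, which specifies interneurons of medial ganglionic origin, measured 23.0 to 37.0 CPM in DMSO vehicle and 27.6 to 38.5 CPM in DMSO acetate, with a log2 fold of 0.06. With inhibitor it measured 21.4 to 33.5 CPM without acetate and 28.6 to 32.7 CPM with it, with a log2 fold of 0.22. Dlx2 was the member with the fewest reads per kilobase in DMSO vehicle, and its log2 folds with acetate were 0.12 with DMSO and 0.28 with inhibitor. Dlx1 had a log2 fold of -0.07 with DMSO and 0.43 with inhibitor (SE 0.17, adjusted p = 0.0635, edgeR). In the inhibitor arm its groups did not overlap, as for 16.4% of all genes that were higher there. It measured 18.3, 24.1 and 23.3 CPM without acetate and 27.5, 30.8, 28.1 and 32.0 CPM with it. The Dlx1 fold in this arm passed in 5 of 25 alternative settings, and over all 25 it ran from -0.079 to 0.535. It passed without inhibitor vehicle 2 (0.51, adjusted p = 0.0461, edgeR) and without DMSO vehicle 1 (0.44, adjusted p = 0.0139, edgeR). In those fits 18.9% and 16.8% of all genes rose, against 14.5% with all libraries.

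Among the subclass markers, Calb2, which encodes calretinin, measured 187, 124, 139 and 136 CPM in DMSO vehicle 1 to 4 and 328, 362, 283 and 266 CPM in DMSO acetate 1 to 4. The groups did not overlap, as for 22.1% of all genes that were higher there, and the log2 fold was 1.08 (SE 0.26, adjusted p = 0.00344, edgeR). In inhibitor vehicle 1 to 3 it measured 111, 292 and 97.8 CPM. Inhibitor vehicle 2, with the low non-neuronal score, thus stood at the level of inhibitor acetate, which ran from 286 to 334 CPM. The log2 fold there was 0.89 (SE 0.29, adjusted p = 0.0269, edgeR). That call was lost without inhibitor vehicle 1 (0.67, adjusted p = 0.126), inhibitor vehicle 3 (0.62, adjusted p = 0.115), inhibitor acetate 2 (0.85, adjusted p = 0.0569) or inhibitor acetate 4 (0.87, adjusted p = 0.0529).

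Pvalb, which encodes parvalbumin, measured 2.11, 18.8, 13.9 and 14.7 CPM in DMSO vehicle 1 to 4 and 1.498, 1.382, 1.592 and 2.433 CPM in DMSO acetate 1 to 4. The groups overlapped through DMSO vehicle 1, and the log2 fold was -2.86 (SE 0.63, adjusted p = 0.00189, edgeR). In inhibitor vehicle 1 to 3 it measured 16.0, 1.91 and 19.1 CPM, and in inhibitor acetate 0.914, 0.735, 0.974 and 0.540 CPM. These groups did not overlap, as for 16.4% of all genes that were lower there, and the log2 fold was -3.96 (SE 0.72, adjusted p = 0.00149, edgeR). Again the low vehicle library, inhibitor vehicle 2, was the one with the low non-neuronal score.

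Reln, the secreted glycoprotein reelin, measured 45.4, 107, 82.4 and 79.9 CPM in DMSO vehicle 1 to 4 and 45.8, 41.4, 44.3 and 37.4 CPM in DMSO acetate 1 to 4. DMSO vehicle 1 lay within the range of DMSO acetate, and the log2 fold was -0.90 (SE 0.23, adjusted p = 0.00503, edgeR). With inhibitor it measured 41.7, 24.2 and 53.9 CPM without acetate and 27.4, 31.5, 36.1 and 29.4 CPM with it. The log2 fold there was -0.36 (SE 0.25, adjusted p = 0.281, edgeR) and did not pass. This fold passed in 3 of 25 alternative settings, among them the fit without inhibitor vehicle 2 (-0.62, adjusted p = 0.037, edgeR). In that fit 23.7% of all genes fell, against 20.6% with all libraries.

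Most members moved with the non-neuronal score also within groups. After group means were subtracted, the Pearson correlation of log2 CPM with the score over the 15 libraries was 0.93 for Pvalb, 0.896 for Reln and -0.924 for Calb2. It was 0.857 for Gad1, 0.846 for Dlx2, 0.729 for Lhx6 and 0.677 for Gad2, and 0.262 for Slc32a1 and 0.232 for Dlx1. DMSO vehicle 1 and inhibitor vehicle 2 lay farthest from their groups in the score, and these values carry no test. With the score as a covariate in the fit, the log2 folds of acetate with DMSO were -0.09 for Calb2, 0.71 for Pvalb and 0.24 for Reln, and none passed. In the inhibitor arm that fit gave 0.25 for Calb2 and -1.03 for Pvalb, and neither passed. Slc32a1 passed with the covariate in both arms, and Gad1, Lhx6 and Dlx2 then passed as higher with DMSO (0.53, 0.65 and 1.13), beside 7.72% of all genes that rose and 6.16% that fell in that fit. The score itself fell with acetate, so the covariate and the treatment cannot be fully told apart. The part of other cell types in these folds was not tested in another way.

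**Figure D3:**
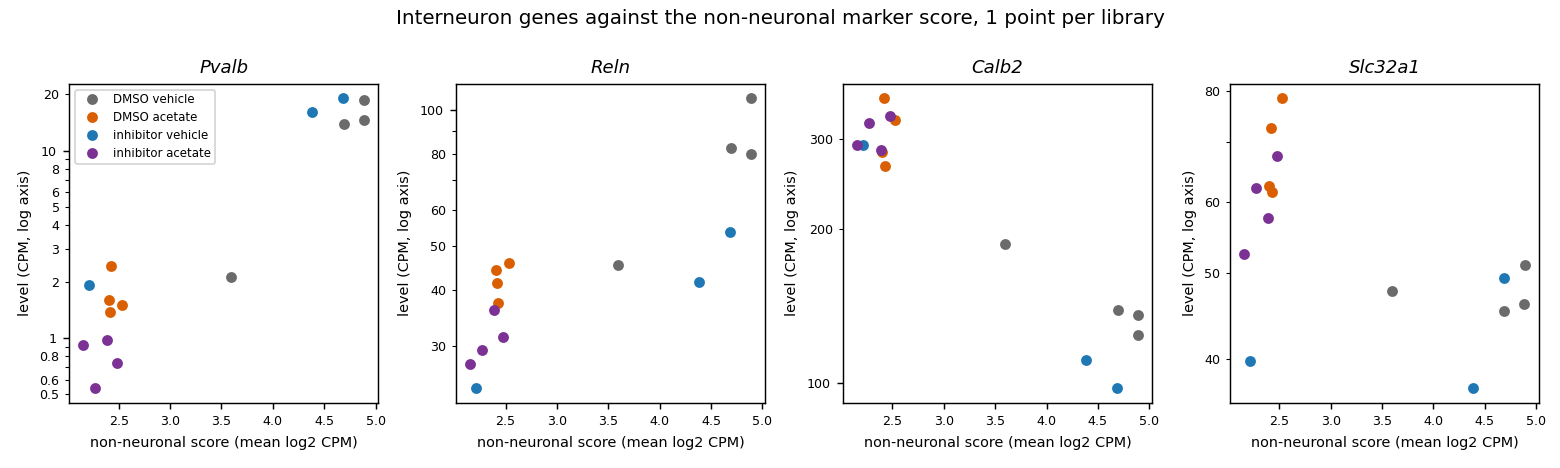
Level of 4 members in each library (vertical axes, CPM on a log scale) against the non-neuronal score (horizontal axis, mean log2 CPM of 5 marker lists), with 1 point per library coloured by group. DMSO vehicle 1 (score 3.596) and inhibitor vehicle 2 (score 2.21) lie near the acetate libraries for Pvalb and Reln and inhibitor vehicle 2 does for Calb2, but both lie with the vehicle libraries for Slc32a1.

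The difference of the acetate responses, with inhibitor minus with DMSO, asks whether the inhibitor altered what acetate did. None of the 9 members passed, beside 0.0199% of all genes (3 genes) that did. The count at an unadjusted p under 0.05 was 0 as well, and DESeq2, which called 5.78% of all genes, also called 0 of the 9. For Slc32a1 the difference of log2 folds was -0.02 (SE 0.15, adjusted p = 0.952, edgeR). The members farthest from 0 were Pvalb (-1.10, adjusted p = 0.55), Reln (0.53, adjusted p = 0.404) and Dlx1 (0.50, adjusted p = 0.245), all by edgeR. Without DMSO vehicle 1 and inhibitor vehicle 2 together, Dlx1 (0.72, adjusted p = 0.0395) and Pvalb (-1.23, adjusted p = 0.0324) passed, beside 4.29% of all genes in that fit.

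The inhibitor was then compared with DMSO. In cultures with acetate, Dlx1 rose and 0 of the 9 fell (1 at an unadjusted p under 0.05, and 0 by DESeq2), beside 2.36% of all genes that rose and 3.42% that fell. Dlx1 measured 19.8, 16.1, 15.1 and 13.4 CPM in DMSO acetate 1 to 4 and 27.5, 30.8, 28.1 and 32.0 CPM in inhibitor acetate 1 to 4. The groups did not overlap, as for 8.96% of all genes that were higher there, and the log2 fold was 0.87 (SE 0.16, adjusted p = 0.00879, edgeR). This call held in 25 of 25 alternative settings, with log2 folds from 0.798 to 1.003. Neither group holds a library that stood apart in the non-neuronal score. Without acetate the log2 fold of the inhibitor on Dlx1 was 0.37 (SE 0.17, adjusted p = 0.19, edgeR).

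Its neighbour Dlx2 measured 6.30, 5.01, 5.48 and 5.19 CPM in DMSO acetate and 3.70, 5.69, 5.19 and 5.58 CPM in inhibitor acetate, with a log2 fold of -0.13 that did not pass. The ratio of Dlx2 to Dlx1 reads averaged 0.345 ± 0.036 in DMSO acetate and 0.170 ± 0.024 in inhibitor acetate (SD, n = 4 each), with no overlap, a 0.49-fold ratio (exact permutation p = 0.0286, adjusted 0.133). Dlx1as is an antisense gene at chr2:71516454-71537891, on the minus strand, whose span covers Dlx1. It was examined after its values were seen. Its exons share 335 bases with those of Dlx1, which is 6.2% of the exon bases of Dlx1 and 20.6% of its own.

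Dlx1as measured 39.9, 36.8, 39.9 and 34.8 CPM in DMSO acetate 1 to 4 and 19.2, 24.2, 19.6 and 21.1 CPM in inhibitor acetate 1 to 4. It fell where Dlx1 rose, with a log2 fold of -0.85 (SE 0.16, adjusted p = 0.00966, edgeR). Its groups did not overlap, as for 12.4% of all genes that were lower there. The ratio of Dlx1 to Dlx1as reads was 0.424 ± 0.055 in DMSO acetate and 1.42 ± 0.10 in inhibitor acetate (SD, n = 4 each). The sum of both genes ran from 48.2 to 59.7 CPM in DMSO acetate and from 46.7 to 55.0 CPM in inhibitor acetate, so the sums overlapped. With acetate in DMSO cultures Dlx1as rose by a log2 fold of 0.40 (SE 0.16, adjusted p = 0.0437, edgeR), while Dlx1 did not pass. Whether reads of the shared exon bases were counted on either gene was not tested.

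**Figure D4:**
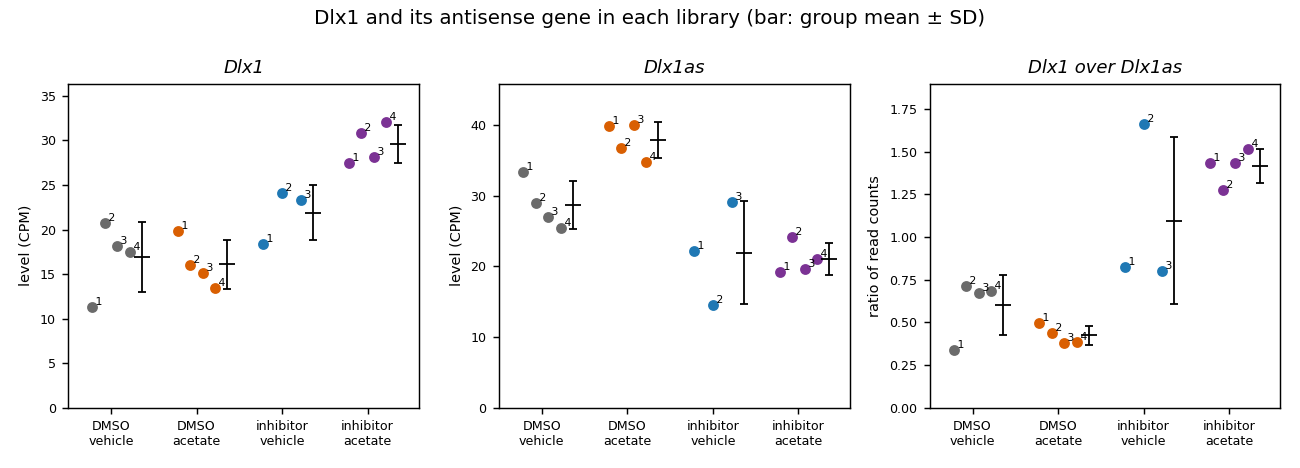
Dlx1, its antisense gene Dlx1as (both in CPM) and the ratio of their reads (no unit) in each library (vertical axes from 0; horizontal axis, the 4 groups; points, libraries with replicate number; bars, group mean ± SD). Inhibitor acetate libraries lie above DMSO acetate libraries for Dlx1, below them for Dlx1as and above them in the ratio, at 1.28 to 1.52 against 0.378 to 0.497.

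The remaining members did not pass between inhibitor and DMSO with acetate, although 3 did not overlap. Gad2 measured 24.8, 28.8, 25.9 and 30.9 CPM in inhibitor acetate, below its 33.2 to 34.0 CPM in DMSO acetate, with a log2 fold of -0.29 (SE 0.10, adjusted p = 0.117, edgeR). Reln (log2 fold -0.44, adjusted p = 0.288) and Pvalb (-1.10, adjusted p = 0.411) also lay lower in every inhibitor acetate library, as 12.4% of all genes did. All 3 passed when the fit held only these 2 groups, and without DMSO vehicle 1 and inhibitor vehicle 2 in the fit of all groups, where 3 members then fell and 1 rose. Of all genes, 10.6% fell in the former fit and 10.7% in the latter, against 3.42% above.

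In cultures without acetate, Gad2 and Reln fell with the inhibitor and 0 of the 9 rose (1 at an unadjusted p under 0.05, and 0 by DESeq2), beside 1.99% of all genes that fell and 3.47% that rose. Gad2 measured 27.5, 25.3 and 34.8 CPM in inhibitor vehicle, against 34.4 to 44.9 CPM in DMSO vehicle, with a log2 fold of -0.42 (SE 0.11, adjusted p = 0.0464, edgeR). Reln had a log2 fold of -0.98 (SE 0.25, adjusted p = 0.0408, edgeR). In both genes the groups overlapped. Both calls stood close to the threshold: the same sign was found in 25 of 25 alternative settings, but Gad2 passed in 8 and Reln in 10. Leaving out inhibitor vehicle 2 gave -0.33 for Gad2 (adjusted p = 0.134) and -0.72 for Reln (adjusted p = 0.101), and leaving out DMSO vehicle 2 gave -0.35 (adjusted p = 0.113) and -0.79 (adjusted p = 0.104), by edgeR.

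**Figure D5:**
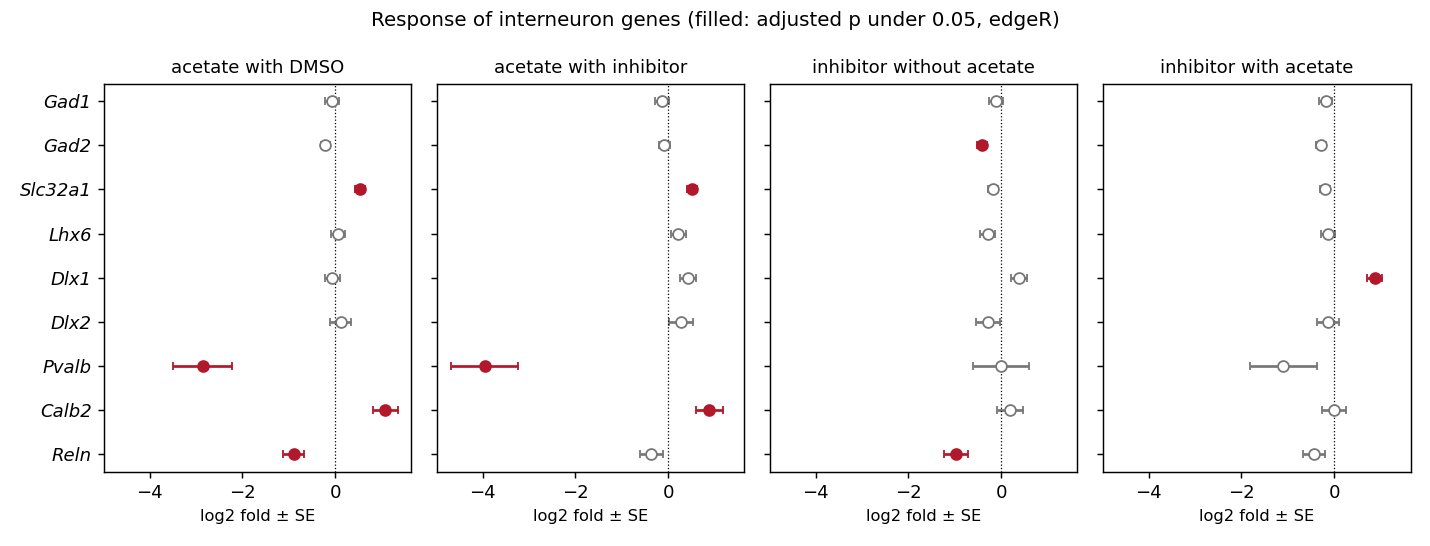
Log2 fold of the 9 members in 4 comparisons (horizontal axes, log2 fold; points, edgeR estimates; bars, ± SE; filled points, adjusted p under 0.05). Slc32a1 is at 0.53 and 0.51 in the acetate panels (-0.17 and -0.02 when libraries are scaled on pan-neuronal markers), Pvalb at -2.86 and -3.96, and Dlx1 at 0.87 in the panel for inhibitor with acetate.

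Other genes of the interneuron programme were taken from lists chosen by function. Their counts are to be read against the shares of all genes given above, 23.7% that rose and 27.5% that fell with acetate in DMSO cultures and 14.5% and 20.6% in inhibitor cultures; a list near these shares does not stand out from other genes. Of 14 other interneuron transcription factors tested, 2 rose and 3 fell with acetate in DMSO cultures, and 4 rose and 3 fell in inhibitor cultures. Their median log2 folds were -0.14 and 0.04. Satb1, a chromatin organiser of somatostatin interneurons, rose in both arms (0.58, adjusted p = 0.00239, and 0.63, adjusted p = 0.00537, edgeR). Sox6, which acts after Lhx6 in cells of medial origin, fell in both (-0.63, adjusted p = 0.000587, and -0.55, adjusted p = 0.00468), and so did Prox1 (-0.83 and -0.73), a factor of caudal-origin interneurons and granule cells. Dlx5 measured 5.85 ± 0.77 CPM in DMSO acetate, against 4.57 ± 0.37 CPM in DMSO vehicle (SD, n = 4 each), and did not pass there. It rose in the inhibitor arm (0.77, adjusted p = 0.00669, edgeR). Between inhibitor and DMSO 0 of the 14 passed by edgeR or DESeq2, with 3 at an unadjusted p under 0.05 without acetate and 2 with it. Of all genes, edgeR called 5.46% without acetate and 5.78% with it, and DESeq2 called 10.6% and 9.33%. Beside those shares, 0 of 14 does not set this list apart from other genes.

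Of 22 interneuron subclass genes tested, 7 rose and 3 fell with acetate in DMSO cultures, and 3 rose and 3 fell in inhibitor cultures, with median log2 folds of 0.15 and 0.26. Kcnc2, a potassium channel of fast-spiking cells, rose in both arms (0.71, adjusted p = 0.000296, and 0.51, adjusted p = 0.00805, edgeR). The direction of Kcnc2 was opposite to that of Pvalb, the calcium-binding protein of the same cells. Other genes of the list did not all follow Kcnc2. Pthlh fell with DMSO, as Pvalb did (-1.66, adjusted p = 0.0182, edgeR), from a low mean of 1.77 CPM without acetate to 0.560 with it. Kcnc1 had a log2 fold of 0.54 with DMSO and did not pass (adjusted p = 0.117, edgeR). Cort, the neuropeptide cortistatin, rose with DMSO (0.996, adjusted p = 0.000347), as did Sst, which encodes somatostatin (0.48, adjusted p = 0.0282). Cck, made by interneurons and by pyramidal cells, measured 284 ± 41 CPM in DMSO acetate, against 75.7 ± 46.7 CPM in DMSO vehicle (SD, n = 4 each), with a log2 fold of 1.91 (adjusted p = 0.00369, edgeR). Lamp5, a marker of neurogliaform cells, fell in both arms (-0.69, adjusted p = 0.0437, and -1.23, adjusted p = 0.00626). Vip was among the genes with too few reads to test, at 0.165 ± 0.175 CPM in DMSO vehicle.

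With the inhibitor, 1 of these 22 subclass genes rose and 0 fell without acetate, and 1 rose and 1 fell with it. Of all genes, 3.47% rose and 1.99% fell without acetate, and 2.36% rose and 3.42% fell with it, so these counts do not set the list apart. At an unadjusted p under 0.05 by edgeR there were 4 of the 22 without acetate and 9 with it (3 higher and 6 lower). Nos1, the neuronal nitric oxide synthase of ivy and neurogliaform cells, rose without acetate (0.70, adjusted p = 0.0474) and with it (0.73, adjusted p = 0.0305, edgeR), and it was the 1 of 22 that rose in each comparison. It measured 38.2 ± 11.2 CPM in DMSO vehicle (n = 4), 62.2 ± 15.7 in inhibitor vehicle (n = 3), 41.0 ± 6.4 in DMSO acetate and 68.0 ± 3.6 in inhibitor acetate (n = 4 each). Cxcl14, a chemokine of caudal-origin interneurons, fell with the inhibitor where acetate was present (-0.37, adjusted p = 0.0328, edgeR).

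Of 15 genes that handle GABA outside the members, 4 rose and 3 fell with acetate in DMSO cultures, and 4 rose and 1 fell in inhibitor cultures. Nlgn2, the adhesion protein of inhibitory synapses, rose in both arms (0.65, adjusted p = 0.000108, and 0.47, adjusted p = 0.00389, edgeR). Slc12a5, the chloride exporter KCC2 of mature neurons, rose in both arms as well (0.43 and 0.54). Slc38a1, a glutamine transporter that can feed GABA synthesis, fell in both (-1.03, adjusted p = 0.000613, and -0.71, adjusted p = 0.0154). Abat, which breaks GABA down, fell with DMSO (-0.37, adjusted p = 0.0056). Between inhibitor and DMSO 0 of the 15 passed by edgeR, with 5 at an unadjusted p under 0.05 without acetate and 1 with it. DESeq2 called 3 as lower without acetate and 0 with it. Of all genes, edgeR called 5.46% without acetate and 5.78% with it. DESeq2 called 4.49% of all genes as lower without acetate and 5.53% with it.

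Among 13 genes of reelin signalling, 4 rose and 3 fell with acetate in DMSO cultures, and 6 rose and 1 fell in inhibitor cultures. Akt1 (0.58 and 0.35) and Pafah1b1 (0.45 and 0.45), which encodes LIS1, rose in both arms, and Itgb1, an integrin subunit that non-neuronal cells also make, fell in both (-0.76 and -0.40). Lrp8, the reelin receptor ApoER2, fell with DMSO acetate (-0.29, adjusted p = 0.00374) and with the inhibitor without acetate (-0.38, adjusted p = 0.0183, edgeR), where Reln fell too. Of 8 Cajal-Retzius markers tested, 0 rose and 3 fell with acetate in DMSO cultures: Zic1 (-1.08), Lhx1 (-1.36) and Trp73 (-0.96), and Zic1 alone fell in inhibitor cultures (-0.87). The summed level of the listed Cajal-Retzius markers ran from 50.9 to 81.9 CPM in DMSO vehicle and from 52.5 to 60.5 CPM in DMSO acetate. The part of Cajal-Retzius cells in the fall of Reln was not tested.

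Markers of other neurons were set beside the members. Of 12 excitatory neuron markers, 5 rose and 0 fell with acetate in each arm. Slc17a7, the vesicular glutamate transporter that plays the role of Slc32a1 in excitatory cells, rose by log2 folds of 1.12 (SE 0.21, adjusted p = 0.000605) with DMSO and 0.99 (SE 0.23, adjusted p = 0.00524) with inhibitor, by edgeR. Of 14 pan-neuronal markers, 11 and 12 rose, with median log2 folds of 0.72 and 0.50. Beside these medians, the log2 folds of Slc32a1 were 0.53 and 0.51, and those of Gad1, Gad2 and Lhx6 lay from -0.21 to 0.22. With libraries scaled on the pan-neuronal markers, 9 of the 14 other transcription factors, 12 of the 22 subclass genes, 13 of the 15 GABA handling genes and 11 of the 13 reelin signalling genes fell with acetate in DMSO cultures, beside 78.9% of all genes.

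The genes whose levels were most like those of Gad1 were sought among 11354 genes whose average log2 CPM reached 2. Over all 15 libraries the highest Pearson correlation of log2 CPM was that of Lrrc55 (r = 0.894), followed by Edem1 (0.85), Myh8 (0.843), Ttyh1 (0.84) and Fcgr3 (0.832). After each group's mean was subtracted, Lrrc55 led again (0.94), followed by Vps26a and Myadm (0.923 each), Col4a6 (0.919) and Timp3 (0.917). The libraries share their treatment group and their content of non-neuronal transcripts, so these values describe likeness over 15 libraries and carry no test. Members were left out of these rankings, so none could appear in them. The member most like Gad1 was Gad2 over all libraries (r = 0.797) and Dlx2 after each group's mean was subtracted (0.885, with Gad2 at 0.878).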

How the data were processed

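RNA was extracted and made into 15 libraries with a directional NEBNext Ultra II kit, as the labels' protocols state. The authors deposited raw read counts, 1 value per gene symbol and library, with no normalization. The submitters' processing notes name STAR 2.5.2a, HTSeq 0.6.1p1, DESeq2 and mm10. The annotation and the strand setting were not given in the sources used here. Summary lines that name no gene (38.9% to 47.4% of a library) were left out.

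The test was edgeR 4.0.16 in R 4.3.3: filterByExpr, TMM scaling (factors 0.885 to 1.126), and 1 quasi-likelihood fit of all 15 libraries with a mean per group. P-values were adjusted by Benjamini-Hochberg over 15075 genes, and the SE is the absolute log2 fold over the square root of F. Levels are TMM-scaled CPM. Log2 CPM used a prior count of 2. Ratios of members had 0.5 added to each count and were tested in log2 by exact permutation (scipy 1.17.1). In simulated data only 83, 55 and 62 of 14866 genes were raised 1.5, 2 and 3 fold in DMSO acetate. Of these, 54.2%, 89.1% and 98.4% were recovered in the acetate comparison with DMSO, with 8 false calls. The real comparison called 51.2% of all genes, so these rates do not carry over to it.

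The members and lists were chosen with earlier results of these data known. All members are named, with the up to 4 genes of smallest p of each neuronal list for acetate with DMSO and up to 2 in other comparisons; other genes, such as Dlx1as, were named after their values were seen. Within groups, 21 library pairs differed beyond counting noise (chi-square per gene 4.65 to 143.8). The labels do not say whether replicates are separate cultures or animals; p-values therefore cover only the spread among these libraries, which may be technical. Alternatives were DESeq2 1.42.0, other scalings and filters, fits of only the groups compared, a replicate block, the non-neuronal score as covariate, libraries left out in turn and, for ratios, 2 added to each count. Some genes of the lists are counted but not reported here by name.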

Additional observations from a re-analysis of the deposited data

How the results depend on the processing

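Results were recomputed under 25 alternatives per comparison (24 for the difference of responses, where a fit of only the groups compared is the fit used). The call on Dlx1 for inhibitor with acetate held in all 25, and those on Slc32a1 and Pvalb in 24 of 25 in each acetate arm. Same-numbered libraries of different groups had deviations that correlated from -0.633 to 0.415 (median -0.066), with 7 of 21 pairs over 0.1. For different numbers the range was -0.588 to 0.688 (median 0.087), with 31 of 63 pairs over 0.1. Of 15 libraries, 3 correlated best with their own number. No pairing by number was seen, but the check cannot exclude one. Libraries that stood apart weigh on it, such as DMSO vehicle 1 and inhibitor vehicle 2 (r = 0.688 with each other). With the replicate block, 0 members in place of 2 fell for inhibitor without acetate (Gad2 -0.41, adjusted p = 0.0727; Reln -1.002, adjusted p = 0.0617, edgeR), and Calb2 for inhibitor with acetate was 0.008.

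Calb2 for inhibitor with acetate, near 0 throughout, was also 0.001 with DESeq2 and with its size factors, 0.012 with at least 10 counts in every library, 0.010 with only the groups compared, 0.021 with upper-quartile scaling and 0.126 with scaling on pan-neuronal markers. Upper-quartile scaling gave Slc32a1 0.023 in the difference and Pvalb -0.018 for inhibitor without acetate. With no low-count filter 1 member fell for inhibitor without acetate. With only the groups compared, 0 fell there, as 0 of all genes did, and 3 fell with acetate, and Pvalb was -0.005 without acetate.

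Scaling on pan-neuronal markers gave 1 member that rose and 6 that fell for acetate with DMSO, and 1 and 4 with inhibitor, beside 78.9% and 64.5% of all genes that fell; 0 fell for inhibitor without acetate. Log2 folds then were, with DMSO, Slc32a1 -0.17, Lhx6 -0.66 and Dlx2 -0.60; with inhibitor, Slc32a1 -0.022, Lhx6 -0.33, Dlx1 -0.079 and Dlx2 -0.30; in the difference, Slc32a1 0.14, Gad1 0.079 and Calb2 0.056; and Pvalb -0.025 for inhibitor without acetate.

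With the non-neuronal score as covariate, 4 members rose and 0 fell for acetate with DMSO, 0 fell with inhibitor, 1 fell in the difference, 1 rose for inhibitor without acetate and 2 fell with acetate. Folds that turned sign were, with DMSO, Calb2 -0.087, Dlx1 0.095, Gad1 0.53, Gad2 0.12, Pvalb 0.71 and Reln 0.24; with inhibitor, Gad1 0.33, Gad2 0.15 and Reln 0.47; in the difference, Calb2 0.34, Dlx2 -0.071 and Lhx6 -0.017; and for inhibitor without acetate, Calb2 -0.41 and Gad1 0.061.

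Without DMSO vehicle 1 and inhibitor vehicle 2, 3 members fell for acetate with inhibitor, 1 rose and 1 fell in the difference, 1 fell for inhibitor without acetate and 3 with acetate. Lhx6 was -0.063 for acetate with DMSO, Dlx2 -0.004 for acetate with inhibitor and -0.025 in the difference, where Calb2 was 0.35; for inhibitor without acetate Calb2 was -0.35 and Gad1 0.031.

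Leaving out 1 library at a time gave 1 to 3 members that rose and 1 to 3 that fell for acetate with inhibitor, and 0 to 2 that fell for inhibitor without acetate. Folds that crossed 0 ranged, for acetate with DMSO, from -0.081 to 0.14 (Lhx6) and -0.23 to 0.034 (Dlx1); for acetate with inhibitor, from -0.33 to 0.11 (Gad1) and -0.17 to 0.066 (Gad2); in the difference, from -0.27 to 0.19 (Gad1), -0.094 to 0.12 (Slc32a1), -0.45 to 0.49 (Calb2) and -0.12 to 0.61 (Dlx2); for inhibitor without acetate, from -0.46 to 0.51 (Pvalb), -0.49 to 0.46 (Calb2) and -0.36 to 0.086 (Gad1); and for inhibitor with acetate, from -0.068 to 0.080 (Calb2). Log2 ratios that crossed 0 ranged, for inhibitor with acetate, from -0.087 to 0.072 (Slc32a1/Gad1) and -0.035 to 0.15 (Lhx6/Gad1); for inhibitor without acetate, from -0.23 to 0.085 (Slc32a1/Gad1) and -0.68 to 0.80 (Pvalb/Gad1); and for acetate with inhibitor, from -0.49 to 0.24 (Dlx2/Dlx1) and -0.069 to 0.16 (Gad2/Gad1). Apart from what the settings themselves change, the cause was not tested. With 12 to 56 reads, Pvalb in the acetate libraries and in the vehicle libraries that stood apart is the member with the largest counting error.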

Other observations

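Of 12 neural progenitor markers tested, 2 rose and 6 fell with acetate in DMSO cultures, and 1 rose and 5 fell in inhibitor cultures. Dcx, a marker of young neurons, rose with acetate in both arms (log2 folds 0.46, adjusted p = 0.000892, and 0.53, adjusted p = 0.00187, edgeR), while Vim, an intermediate filament of progenitors and glia, fell (-1.89 and -1.67).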
